A study of Mus musculus with 9 samples.

Results

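Immediate early genes are switched on within minutes of a stimulus, from transcription factors already present in the cell and without new protein synthesis. The 10 described here were measured in mouse colonic mucosa: Fos, Fosb, Jun, Junb and Atf3, which encode subunits of the AP-1 family of leucine zipper factors, Egr1 and Egr2, which encode zinc finger factors, Ier2 and Ier3, and Dusp1, a phosphatase that switches off MAP kinases. They were taken by name, and the choice was made with earlier results of these data known. Their probes were found by matching the transcript accession of each probe on the array to these symbols. All 10 genes had a probe, 11 probes of 41174 in all (Junb had 2), and all 11 were well above background on every array, so no member was lost to the filter on dim probes. The probes of Fos, Jun and Egr2 were printed as 10 spots on each array, and the SD between those spots was 0.025 to 0.08 for Fos, 0.025 to 0.062 for Jun and 0.058 to 0.139 for Egr2 on the log2 scale.

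In a growth factor or stress response, signals through the MAP kinases ERK, JNK and p38 reach factors such as SRF with its ELK partners and CREB, which sit on the promoters of these genes. FOS and JUN proteins then pair into AP-1 and act on later genes, among them matrix metalloproteinases, while DUSP1 removes the activating phosphates from the kinases and ends the response. In the gut epithelium this response follows epidermal growth factor, wounding and microbial products.

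All 9 samples were ICR mouse colonic mucosa labelled normal, and all mice had received 1,2-dimethylhydrazine (DMH), a colon carcinogen, by subcutaneous injection at 20 mg/kg once a week for 20 weeks. The DMH group ate a normal diet with 1.24% calcium, and the high calcium group ate a diet with 3% calcium. The high calcium samples were labelled as from mice without tumors or from mice with tumors. The tumor status of the DMH mice is not in the labels beyond the word control, and there was no group without DMH. Each of the 3 groups had 3 arrays, and the labels leave unsaid whether different arrays stand for different mice; the tests use the variation from array to array, which may be technical. By its title, the study was about how calcium prevents colorectal cancer in a mouse model.

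The 75th percentile of the processed signal, to which each array was scaled, ran from 572.5 to 819.2, and 61.1% to 73.7% of probes per array were well above background. The arrays lay on 3 slides that did not balance the groups: slide 1 held all 3 arrays of high calcium mice without tumors and 1 DMH array, slide 2 held 2 arrays of mice with tumors and 2 DMH arrays, and slide 3 held the third array of mice with tumors alone. A fit with slide as a block therefore gives no weight to that last array, rests on 1 DMH array for the mice without tumors, and compares the 2 high calcium groups only by way of the DMH arrays. The epithelial markers were well above background on all 9 arrays for all 9 of 10 listed genes with a named probe, and their summed level, relative to the array's 75th percentile, was 1150 to 1270, 1060 to 1190 and 1040 to 1210 in mice without tumors, with tumors and of the DMH group. Smooth muscle markers, 6 of 6 measured, were also well above background throughout. Of the defining markers, Trp63 (squamous epithelium) was above background on 0 arrays, Lep (adipocytes) on 1 and Ret (enteric neurons) on 2.

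Promoters can carry elements through which immediate early genes are switched on. The promoter windows of 5 of the members that fell in a comparison with DMH, Fos, Jun, Egr2, Ier3 and Atf3, are shown first. Dusp1 also fell and has a window, which is described below without its sequence. Each is the RefSeq sequence (GRCm38.p6) on the gene's own strand, 250 bases before to 50 bases after the annotated start. RefSeq windows were matched for 8 of the 10 members, 12 windows in all, of which Egr2 has 5. Capitals mark TATAAA, the cyclic AMP response element core TGACG on either strand, the AP-1-like site TGACATCA known from the Jun promoter, and the CArG box bound by SRF.
Fos, chr12:85473640-85473939, plus strand: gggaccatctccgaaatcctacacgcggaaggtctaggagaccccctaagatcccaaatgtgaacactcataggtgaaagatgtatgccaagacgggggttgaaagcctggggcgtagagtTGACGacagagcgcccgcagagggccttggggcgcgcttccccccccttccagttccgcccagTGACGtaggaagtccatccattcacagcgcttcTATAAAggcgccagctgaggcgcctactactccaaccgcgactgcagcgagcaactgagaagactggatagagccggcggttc
Jun, chr4:95052173-95052472, minus strand: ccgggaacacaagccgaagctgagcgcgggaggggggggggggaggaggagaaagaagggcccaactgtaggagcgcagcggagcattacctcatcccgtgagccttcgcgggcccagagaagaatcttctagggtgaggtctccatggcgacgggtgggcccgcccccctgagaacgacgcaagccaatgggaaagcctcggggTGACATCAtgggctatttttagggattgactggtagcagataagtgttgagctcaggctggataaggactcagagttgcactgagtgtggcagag
Egr2, chr10:67537619-67537918, plus strand: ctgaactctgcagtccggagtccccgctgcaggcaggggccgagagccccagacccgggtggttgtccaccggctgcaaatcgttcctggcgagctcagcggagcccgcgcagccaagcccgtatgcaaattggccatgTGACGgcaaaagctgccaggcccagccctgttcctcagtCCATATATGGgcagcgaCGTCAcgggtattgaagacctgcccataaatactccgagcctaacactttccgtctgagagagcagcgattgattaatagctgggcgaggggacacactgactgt
Ier3, chr17:35821463-35821762, plus strand: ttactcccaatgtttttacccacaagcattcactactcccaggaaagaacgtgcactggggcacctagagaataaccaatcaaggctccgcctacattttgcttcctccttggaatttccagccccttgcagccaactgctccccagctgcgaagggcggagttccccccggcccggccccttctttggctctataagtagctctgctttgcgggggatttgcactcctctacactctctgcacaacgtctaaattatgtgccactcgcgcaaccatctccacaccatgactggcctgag
Atf3, chr1:191183284-191183583, minus strand: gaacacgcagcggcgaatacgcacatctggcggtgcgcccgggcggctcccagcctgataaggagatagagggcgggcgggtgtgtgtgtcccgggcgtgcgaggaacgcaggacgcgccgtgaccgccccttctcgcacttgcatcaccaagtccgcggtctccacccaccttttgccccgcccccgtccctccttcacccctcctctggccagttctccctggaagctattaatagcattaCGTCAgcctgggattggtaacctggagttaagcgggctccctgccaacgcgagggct

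The Fos window held TATAAA 33 to 28 bases before the start and TGACG at 129 to 125 and again at 66 to 62 bases before it. Jun held TGACATCA 45 to 38 bases before its start, and Atf3 held TGACG on the opposite strand 7 to 3 bases before its start. The CArG box was found in 4 of the 5 Egr2 windows. Some of these windows overlap and hold the same box, so this is not a count of separate boxes. Of 32851 promoter windows of the same length, 13.6% held TATAAA, 20.8% TGACG, 3.62% TGACATCA and 1.63% a CArG box. The full element TGACGTCA, which contains TGACG at both ends and is held by 1.79% of windows, lay 143 to 136 bases before the start of Dusp1. The AP-1 site TGANTCA, held by 7.81% of windows, was not among the letters of the members' windows, and the Ier3 window held none of the motifs searched. A match describes the letters in the window and is not a measured binding site.

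Compared with the DMH group, 6 of the 10 genes fell in high calcium mice without tumors, where 18.4% of all features were called higher and 17.3% lower. In high calcium mice with tumors 4 of the 10 fell, where 21% of all features were called higher and 15.9% lower. In either comparison 0 of the 10 rose by limma, and at an unadjusted p under 0.05 the counts higher were 0 and 1 (Dusp1). Egr1, Fos and Ier3 fell in both groups, Jun, Egr2 and Dusp1 in mice without tumors, and Atf3 in mice with tumors. The largest difference was that of Ier3, 3.48-fold lower in mice without tumors and 1.98-fold lower in mice with tumors. Values are log2 signals relative to the array's 75th percentile, the test is limma's moderated test with Benjamini-Hochberg adjustment over 21083 features, and a gene is said to have risen or fallen where the adjusted p was under 0.05. The comparisons against DMH share the same 3 DMH arrays.

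With both high calcium groups together, 6 members fell and 0 rose, where 17.9% of all features were called higher and 13.8% lower. Of these, Fos, Egr1 and Ier3 also fell in each group alone. The combined falls of Jun (-0.45 ± 0.08, adjusted p = 0.00378), Egr2 (-0.17 ± 0.05, adjusted p = 0.0299) and Atf3 (-0.41 ± 0.09, adjusted p = 0.0137) average a group that fell with a group that was not called. In those genes the high calcium arrays overlapped the DMH arrays. Between mice without and with tumors, 5 members were lower and 1 higher in mice without tumors, where 20.6% of all features were called higher and 27% lower. The median difference of the 10 members was -0.26 for mice without tumors, -0.18 for mice with tumors and -0.29 for both together against DMH, beside 0.07, 0.08 and 0.07 over all features. It was -0.19 between the 2 high calcium groups, beside 0 over all features. On the authors' deposited values, which are centred on each array's median, the median of all features itself shifted to -0.14, -0.06 and -0.11 against DMH, and the share of called features that were higher was 29.3%, 39.5% and 30.3% in place of 51.5%, 56.9% and 56.5% here. There 4, 3 and 5 members fell and 0 rose.

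**Figure D1:**
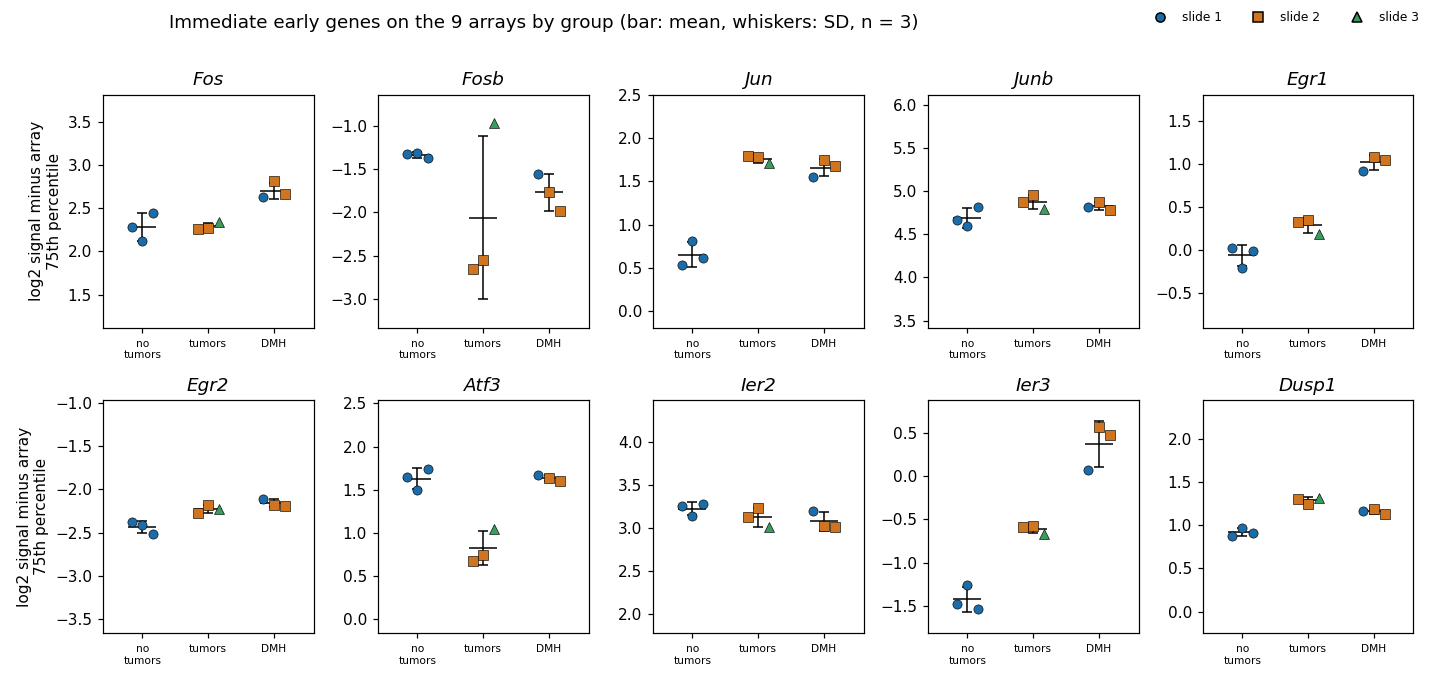
Level of each of the 10 genes on the 9 arrays, as log2 signal minus the array's 75th percentile, in high calcium mice without tumors, high calcium mice with tumors and the DMH group; points are arrays, their colour and shape the slide, bars the mean and whiskers the SD (n = 3), and every panel spans the same height. Ier3 and Egr1 step down from DMH to mice with tumors to mice without tumors, Jun is low in mice without tumors, Atf3 is low in mice with tumors, and 1 Fosb array of mice with tumors, alone on slide 3, lies far above the other 2.

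Among the AP-1 subunits, Fos, the FOS subunit of the classical dimer, was lower in both high calcium groups. It read 2.28, 2.12 and 2.44 on the arrays of mice without tumors, 2.26, 2.27 and 2.34 in mice with tumors, and 2.63, 2.81 and 2.66 in the DMH group. The DMH arrays were the highest and did not overlap either high calcium group, while the high calcium groups overlapped each other. The difference was -0.42 ± 0.09 (SE, 1.34-fold lower, adjusted p = 0.0105) without tumors and -0.41 ± 0.09 (1.33-fold lower, adjusted p = 0.0105) with tumors. With slide as a block the call without tumors was lost (-0.35, adjusted p = 0.108; within slide 1, adjusted p = 0.186) and that with tumors kept (-0.47, adjusted p = 0.0213; within slide 2, adjusted p = 0.0191), and on the authors' values the call with tumors was lost (-0.54, adjusted p = 0.052). Mice without and with tumors differed by -0.01 ± 0.09 in Fos (adjusted p = 0.952).

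Jun, its classical partner and the target of JNK, was lower in mice without tumors than in either other group. Its arrays read 0.53, 0.81 and 0.61 without tumors, 1.79, 1.78 and 1.71 with tumors, and 1.55, 1.75 and 1.68 in the DMH group. All 3 arrays of mice without tumors lay below the other 6, which overlapped. Jun fell 2.01-fold against DMH (-1.01 ± 0.09, adjusted p = 0.000182) and was 2.16-fold lower than in mice with tumors (-1.11 ± 0.09, adjusted p = 9.06e-05), and both calls were kept with slide as a block (-0.90, adjusted p = 0.00442, and -0.97, adjusted p = 0.00961) and, against DMH, within slide 1 (-0.90, adjusted p = 0.0259). In mice with tumors it differed from DMH by 0.10 ± 0.09 (adjusted p = 0.409).

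Atf3, a stress-induced member of the family that mostly represses, differed between the high calcium groups in the direction opposite to Jun. It read 1.65, 1.5 and 1.74 in mice without tumors, 0.68, 0.75 and 1.05 in mice with tumors, and 1.67, 1.64 and 1.60 in the DMH group. Each array of mice with tumors lay below all of the others, and the remaining groups overlapped. Atf3 fell 1.75-fold in mice with tumors against DMH (-0.81 ± 0.11, adjusted p = 0.00121), differed by -0.01 ± 0.11 in mice without tumors (adjusted p = 0.957), and was 1.74-fold higher without than with tumors (0.80 ± 0.11, adjusted p = 0.00085). With slide as a block the first and last of these were -0.91 (adjusted p = 0.00149) and 0.87 (adjusted p = 0.00876). The combined fall of both high calcium groups, -0.41 ± 0.09 (adjusted p = 0.0137), averages these -0.81 and -0.01, and its arrays overlapped those of DMH.

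Fosb, a FOS relative whose spliced form builds up under repeated stimulation, was not called with all arrays and no block, and had the widest spread. Its arrays read -1.33, -1.31 and -1.37 in mice without tumors, -2.66, -2.55 and -0.97 in mice with tumors, and -1.56, -1.76 and -1.99 in the DMH group. The third array of mice with tumors, the one alone on slide 3, was higher than the other 8, and the other 2 of its group were lower than all of the rest. With all arrays the differences were 0.43 ± 0.41 without tumors and -0.29 ± 0.41 with tumors against DMH (adjusted p = 0.427 and 0.639), and 0.73 ± 0.41 between them (adjusted p = 0.19). Without that array Fosb was lower in mice with tumors than in DMH (-0.84, adjusted p = 0.00284), higher in mice without tumors than in DMH (0.43, adjusted p = 0.0187), and higher without than with tumors (1.27, adjusted p = 0.000386). With slide as a block, which gives that array no weight, the first and last of these were called (-0.73, adjusted p = 0.00249, and 0.95, adjusted p = 0.00708), and the difference of mice without tumors from DMH was not (0.22, adjusted p = 0.164; within slide 1, adjusted p = 0.117).

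Junb, which pairs with FOS proteins and restrains JUN activity, read 4.66, 4.59 and 4.82 in mice without tumors, 4.87, 4.96 and 4.79 in mice with tumors, and 4.82, 4.87 and 4.78 in the DMH group by its brighter probe. All 3 groups overlapped and no difference passed the test, the nearest being -0.18 ± 0.07 between mice without and with tumors (adjusted p = 0.0828). Its dimmer probe read 3.95, 3.68 and 3.94, then 4.23, 4.31 and 4.16, then 4.04, 4.31 and 4.08 in the same order of groups. By that probe Junb was lower without than with tumors (-0.38 ± 0.10, adjusted p = 0.0159), and the mean of both probes gave -0.28 (adjusted p = 0.0263), so the probes disagreed in the call and not in the sign. The brighter probe passed the threshold without replicate 3 of mice without tumors (-0.24, adjusted p = 0.0318) or replicate 3 of mice with tumors (-0.22, adjusted p = 0.0499).

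Egr1, the zinc finger factor that responds to ERK signals, fell in both high calcium groups. It read 0.03, -0.20 and -0.01 without tumors, 0.33, 0.35 and 0.19 with tumors, and 0.92, 1.08 and 1.05 in the DMH group. No groups overlapped: DMH was the highest and mice without tumors the lowest. Egr1 was 2.11-fold lower than DMH without tumors (-1.08 ± 0.08, adjusted p = 0.000106) and 1.66-fold lower with tumors (-0.73 ± 0.08, adjusted p = 0.00066), and with slide as a block these were -0.98 (adjusted p = 0.00193) and -0.73 (adjusted p = 0.0023). The high calcium groups differed by -0.35 ± 0.08 (adjusted p = 0.0101), a call lost with slide as a block (-0.25, adjusted p = 0.18) and on the authors' values (-0.41, adjusted p = 0.123).

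Egr2, a close relative known from myelinating Schwann cells and lymphocytes, showed smaller differences. It read -2.38, -2.41 and -2.52 without tumors, -2.27, -2.18 and -2.23 with tumors, and -2.11, -2.18 and -2.19 in the DMH group, so that the arrays of mice without tumors lay lowest and the other groups overlapped. It fell by 0.28 ± 0.06 against DMH without tumors (1.21-fold, adjusted p = 0.00759), was lower by 0.21 ± 0.06 than with tumors (1.15-fold, adjusted p = 0.0174), and differed by -0.07 ± 0.06 with tumors (adjusted p = 0.382). With normexp background correction both calls were lost (-0.11, adjusted p = 0.553, and -0.09, adjusted p = 0.687), and the latter was also lost without replicate 3 of mice without tumors (-0.16, adjusted p = 0.0571) or replicate 2 of mice with tumors (-0.18, adjusted p = 0.0634). With slide as a block the fall against DMH was kept (-0.33, adjusted p = 0.0275) and the difference from mice with tumors was lost (-0.29, adjusted p = 0.0785), and within slide 1 the fall against DMH was lost too (-0.33, adjusted p = 0.083).

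Ier3, an early response gene of NF-kappaB and ERK signals that acts in cell survival, changed most. It read -1.48, -1.26 and -1.54 without tumors, -0.59, -0.58 and -0.67 with tumors, and 0.07, 0.57 and 0.48 in the DMH group. The groups did not overlap, with DMH highest and mice without tumors lowest. The differences from DMH were -1.80 ± 0.14 without tumors (adjusted p = 0.000106) and -0.99 ± 0.14 with tumors (adjusted p = 0.00148), and with slide as a block -1.49 (adjusted p = 0.001) and -1.11 (adjusted p = 0.00131). The 1.76-fold difference between the high calcium groups (-0.81 ± 0.14, adjusted p = 0.00233) was -0.38 with slide as a block, no longer called (adjusted p = 0.109).

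Ier2, a nuclear protein induced by serum, read 3.25, 3.14 and 3.28 without tumors, 3.13, 3.23 and 3.01 with tumors, and 3.20, 3.02 and 3.01 in the DMH group. The 3 groups overlapped. Its differences from DMH were 0.15 ± 0.08 and 0.04 ± 0.08 (adjusted p = 0.192 and 0.724), and none of its comparisons was called.

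Dusp1, the phosphatase that ends JNK, p38 and ERK signals, was lowest in mice without tumors. It read 0.88, 0.97 and 0.91 there, 1.30, 1.25 and 1.32 with tumors, and 1.16, 1.19 and 1.13 in the DMH group, and no groups overlapped. It fell by 0.24 ± 0.05 against DMH without tumors (1.18-fold, adjusted p = 0.00616) and was 1.29-fold lower than with tumors (-0.37 ± 0.05, adjusted p = 0.000584). In mice with tumors it was above DMH on all arrays, by 0.13 ± 0.05, which missed the threshold (adjusted p = 0.0548). The fall without tumors was kept with slide as a block (-0.24, adjusted p = 0.0423) and lost within slide 1 (adjusted p = 0.116), with normexp (-0.19, adjusted p = 0.0547) and on the authors' values (-0.43, adjusted p = 0.0754), where the difference from mice with tumors was lost too (-0.43, adjusted p = 0.0571).

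**Figure D2:**
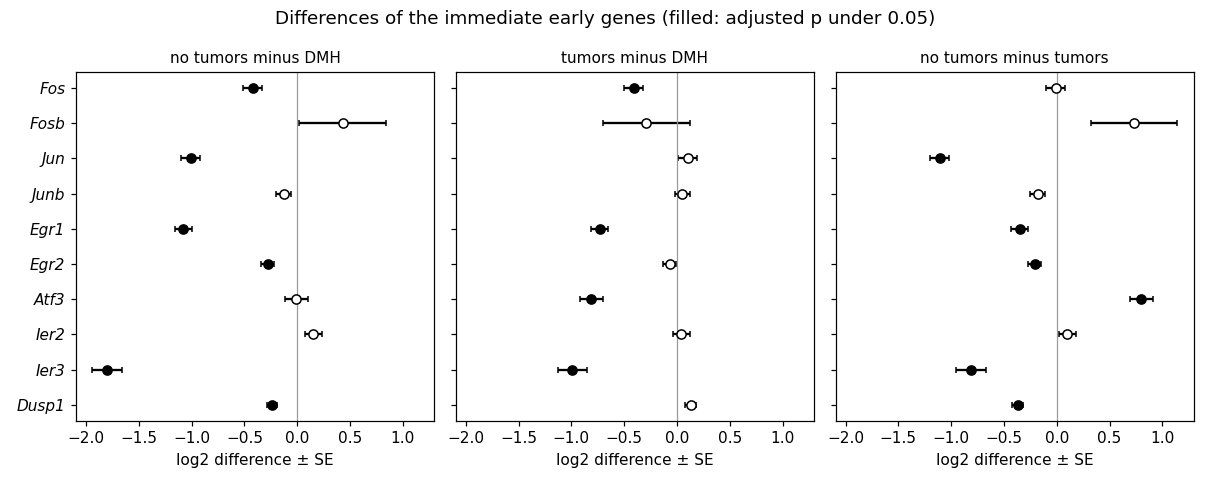
Log2 difference (point) and SE (bar) of the 10 genes in mice without tumors minus DMH, mice with tumors minus DMH, and mice without minus with tumors; filled points have an adjusted p under 0.05. Ier3 lies furthest to the left in both comparisons with DMH (-1.80 and -0.99), Jun in the third (-1.11), and Atf3 is the filled point to the right there (0.80).

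The members did not all follow 1 pattern over the 9 arrays. As a description of 9 points that share groups and slides, Egr1 and Ier3 correlated at r = 0.96, Jun and Dusp1 at 0.95, Fos and Egr1 at 0.89, and Atf3 and Dusp1 at -0.72. After removal of the group means the same pairs gave 0.18, 0.59, 0.54 and -0.02. Over all named genes, the most like Fos were Slc5a9, a sugar transporter (r = 0.9764), Hbegf, a ligand of the EGF receptor and one of the AP-1 targets listed here (0.9701), and Prr13 (0.9562). Slc5a9 stood at -1.70 ± 0.17, -1.75 ± 0.12 and -1.03 ± 0.15 (SD, n = 3) without tumors, with tumors and in the DMH group, and Hbegf at -0.16 ± 0.13, -0.19 ± 0.09 and 0.46 ± 0.07. The most like Egr1 were Adam8, a leukocyte metalloprotease (0.9927), Mab21l3 (0.9913) and Samd5 (0.9897), and Adam8 stood at 0.05 ± 0.12, 0.45 ± 0.13 and 1.15 ± 0.05. In the same order of groups the other genes were dim, Mab21l3 at -5.62, -5.06 and -3.73 and Samd5 at -4.94, -3.92 and -2.57. The most like Ier3 were Thbd, thrombomodulin (0.9896), Defa23, of a family of near-identical Paneth cell defensins that a probe may not tell apart (0.9889), and S100a8, a neutrophil calcium-binding protein (0.9884). Thbd stood at 0.22 ± 0.06, 0.57 ± 0.02 and 0.97 ± 0.15. S100a8 was well above background on 6 arrays, none of them of mice without tumors.

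Around the members, the genes known as AP-1 targets had the largest median differences from DMH of the 7 lists examined. Of 17 listed, 14 were measured, and 11 fell and 0 rose in mice without tumors (median -0.80; by limma, 0 higher also at an unadjusted p under 0.05), and 11 fell and 2 rose in mice with tumors (median -0.69), where the medians of all features were 0.07 and 0.08. Over all features 18.4% were called higher and 17.3% lower without tumors, and 21% and 15.9% with tumors. Over all alternatives run the number that fell ran from 9 to 12 and from 10 to 11 in these comparisons. The collagen- and matrix-degrading proteases led: Mmp10 read -0.60, -0.89 and -0.72 without tumors, -0.30, -0.38 and -0.32 with tumors and 2.61, 2.48 and 2.56 in the DMH group, a gap several times the spread within any group. Its differences were -3.29 ± 0.08 (adjusted p = 1.5e-06) and -2.88 ± 0.08 (adjusted p = 5.47e-06). Mmp13, an interstitial collagenase, fell by 2.90 ± 0.17 and 3.16 ± 0.17 (adjusted p = 3.78e-05 and 5.65e-05), and Spp1, the matrix protein osteopontin, by 2.67 ± 0.09 and 1.88 ± 0.09 (adjusted p = 3.64e-06 and 3.34e-05).

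Other targets separated the 2 high calcium groups. Timp1, an inhibitor of metalloproteinases, read -1.26, -1.20 and -1.28 without tumors, 1.1, 0.98 and 0.94 with tumors and -0.10, -0.18 and -0.17 in the DMH group. It fell by 1.09 ± 0.06 without tumors and rose by 1.16 ± 0.06 with tumors (adjusted p = 1.97e-05 and 3.73e-05). Plau, the urokinase plasminogen activator, fell further with tumors (-1.46 ± 0.07, adjusted p = 3.73e-05) than without (-0.50 ± 0.07, adjusted p = 0.00174), and the difference between the groups was 0.97 ± 0.07 (adjusted p = 7.12e-05). Hmox1, heme oxygenase, was lower without than with tumors (-1.18 ± 0.11, adjusted p = 0.000197), as was the gelatinase Mmp9 (-1.40 ± 0.09, adjusted p = 5e-05). Between the high calcium groups 8 targets were lower and 3 higher without tumors (median -0.38), where 27% of all features were called lower and 20.6% higher.

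The other immediate early genes, 31 of 33 measured, were split in direction. In mice without tumors 7 rose and 8 fell (median -0.08), in mice with tumors 8 rose and 6 fell (median 0.03), and between the groups 7 were higher and 8 lower without tumors. These counts are near the shares over all features, 18.4% higher and 17.3% lower without tumors, 21% and 15.9% with tumors, and 20.6% and 27% between the groups. On the authors' values 1 rose and 6 fell without tumors and 1 rose and 4 fell with tumors. Phlda1, a growth factor response gene, fell in both groups (-0.85 ± 0.07 and -0.45 ± 0.07, adjusted p = 0.000186 and 0.00281), and so did Myc, the growth regulator (-0.61 ± 0.05 and -0.39 ± 0.05, adjusted p = 0.000195 and 0.00144), the orphan receptor Nr4a2 (-0.26 ± 0.06 and -0.71 ± 0.06, adjusted p = 0.0147 and 0.000272) and the matricellular Ccn1 (-0.45 ± 0.09 and -0.54 ± 0.09, adjusted p = 0.00656 and 0.0028). With tumors the calls of Phlda1 and Myc were lost on the authors' values (adjusted p = 0.0501 and 0.0682). Sgk1, a kinase that regulates sodium transport, rose most with tumors (0.78 ± 0.12, adjusted p = 0.00251) and differed by 0.34 ± 0.12 without (adjusted p = 0.0652). Mcl1, a survival protein of the BCL2 family, rose in both groups (0.42 ± 0.07 without and 0.59 ± 0.07 with tumors, adjusted p = 0.00273 and 0.000671), a call lost with tumors on the authors' values (0.47, adjusted p = 0.106). The polo-like kinases parted in mice without tumors, where Plk2 fell (-1.03 ± 0.11, adjusted p = 0.000374) and Plk3 rose (0.92 ± 0.10, adjusted p = 0.000546). Arc, a cytoskeletal gene best known in neurons, fell without tumors (-0.20 ± 0.06, adjusted p = 0.0391) and rose with tumors (0.50 ± 0.06, adjusted p = 0.000874).

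Of the AP-1 and EGR relatives, 9 of 12 were measured: 1 rose and 0 fell without tumors (Nab1, a repressor of EGR factors, 0.25 ± 0.06, adjusted p = 0.0149), where 18.4% of all features were called higher and 17.3% lower, and 2 rose and 0 fell with tumors, where the shares were 21% and 15.9%. Maff, a small Maf protein, rose with tumors (0.50 ± 0.07, adjusted p = 0.00151) and was lower without than with tumors (-0.67 ± 0.07, adjusted p = 0.000294), as was Fosl2, a FOS relative (-0.51 ± 0.10, adjusted p = 0.00457). At an unadjusted p under 0.05 these counts were 1 higher and 3 lower, and 4 higher and 1 lower. On the authors' values 0 of the 9 rose by limma in either comparison with DMH, and the calls of Nab1 (adjusted p = 0.818) and of Maff with tumors (adjusted p = 0.169) were lost. The median of the list was -0.05 without and 0.09 with tumors.

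Among the MAP kinase phosphatases and ERK feedback inhibitors, 13 of 16 were measured. Without tumors 2 rose and 2 fell (median -0.01), beside 18.4% higher and 17.3% lower over all features. With tumors 2 rose and 6 fell (median -0.07), beside 21% higher and 15.9% lower. The counts with tumors did not hold under other processing, being 0 and 2 of 12 on the authors' values and 1 and 1 with normexp. Dusp4, a nuclear phosphatase induced by ERK, fell in both (-0.93 ± 0.07 and -0.74 ± 0.07, adjusted p = 0.000116 and 0.000438), calls that were lost with normexp (-0.43, adjusted p = 0.0742, and -0.36, adjusted p = 0.12). Spred2, which blocks RAF activation, was the exception in size: its arrays read -0.46, -0.76 and -0.63 without tumors against -2.22, -2.19 and -2.69 with tumors and -2.46, -2.31 and -2.23 in the DMH group. It rose by 1.72 ± 0.15 in mice without tumors (adjusted p = 0.000189).

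Of the upstream kinases and factors of the SRF pathway, 22 of 24 were measured. Without tumors 7 rose and 4 fell (median 0.15), beside 18.4% higher and 17.3% lower over all features. With tumors 2 rose and 6 fell (median 0.03), beside 21% higher and 15.9% lower. But on the authors' values 0 rose and 1 fell without tumors, and 0 and 0 with tumors. Map2k1, the kinase that activates ERK, rose by 0.39 ± 0.05 without tumors (adjusted p = 0.000732) and fell by 0.24 ± 0.05 with tumors (adjusted p = 0.00623). The SRF partners parted without tumors, where Elk3 fell by 0.59 (adjusted p = 0.000637) and the dimmer Elk4 rose by 0.61 (adjusted p = 0.00759). Elk4 stood at -4.56 without tumors and -5.16 in the DMH group. The stress lists were measured in full, 10 of 10 in each, and the same shares over all features stand beside their counts. In the ATF4 and CHOP response 1 rose and 1 fell without tumors and 4 rose and 1 fell with tumors, and in the heat shock response 1 rose and 4 fell and 2 rose and 2 fell. On the authors' values these were 0 and 1 without and 0 and 0 with tumors for ATF4 and CHOP, and 0 and 1 without and 1 and 2 with tumors for heat shock. Ddit4, an inhibitor of mTOR induced by stress, was lower without than with tumors by 1.03 on the log2 scale (-1.03, adjusted p = 0.000143). Of the heat shock genes, the chaperone Hsph1 fell in both groups (-0.93 and -0.83, adjusted p = 8.48e-05 and 0.000224). Hspb1 of the same list rose in both (0.41 without and 0.92 with tumors, adjusted p = 0.023 and 0.000752).

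**Figure D3:**
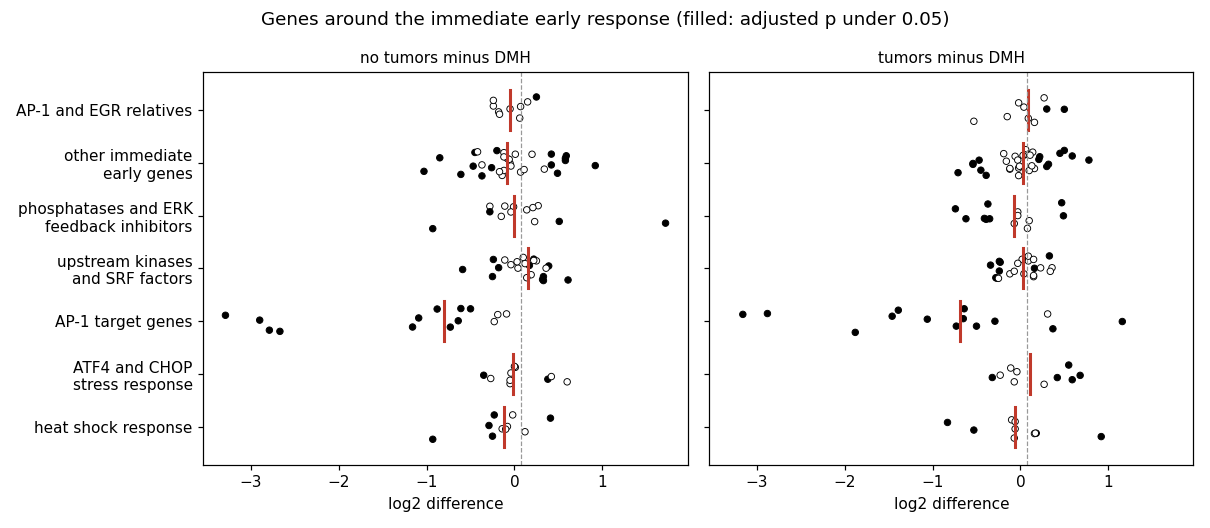
Log2 differences from DMH of the measured genes of 7 lists in mice without tumors (left) and with tumors (right); each point is a gene, filled where the adjusted p is under 0.05, the red bar is the list's median and the dashed line the median of all features. The AP-1 targets lie furthest left (medians -0.80 and -0.69), and the other lists have medians between -0.12 and 0.15.

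Markers of other cell types moved with the groups. Summed leukocyte markers, 8 of 8 measured, were 12.8 to 14.1 without tumors, 11.6 to 12.7 with tumors and 16.1 to 16.9 in the DMH group. Most of the difference between mice without tumors and DMH in that sum lay in S100a9, a neutrophil gene (log2 level -2.24 without tumors, -1.32 with tumors and 1.32 in DMH), while Lyz2 and Cd3e stood at 2.34 and -0.85 without tumors and 2.17 and -1.34 in DMH. Adipocyte markers, 4 of 5 measured, were 3.87 to 6.59, 7.26 to 11.3 and 30.2 to 33.3. Squamous markers, 3 of 4 measured, were 1.1 to 1.22, 2.35 to 2.82 and 4.25 to 4.75. The adipocyte and squamous sums thus had the order of groups of Ier3 and Egr1, highest in DMH and lowest without tumors. The squamous sum was carried by Krt14 (log2 level -0.57 without tumors, 0.90 with tumors and 1.94 in DMH), while Krt5 was at -2.03, -1.51 and -2.27 and its differences were not called. Smooth muscle markers were higher in both high calcium groups than in DMH, at 412 to 512, 585 to 762 and 220 to 379, while those of enteric neurons and glia, 5 of 7 measured, were 2.49 to 4.41, 3.40 to 5.18 and 2.18 to 3.01. The median smooth muscle difference from DMH was 0.77 without tumors and 0.34 there with slide as a block. With tumors it was 1.24, and 1.46 with slide as a block. Fibroblast markers, 4 of 4, were 55.6 to 61.3, 82.3 to 91.0 and 62.6 to 68.1, and endothelial markers, 4 of 4, were 1.87 to 1.99 on the 2 arrays without tumors that gave all of them, 2.12 to 2.25 and 2.22 to 2.34. The low endothelial sum without tumors was carried by Cdh5, at -1.16 and -1.22 there and -0.07, -0.18 and -0.08 with tumors. Against that sum, 3 endothelial markers were called higher and 1 lower without than with tumors (median 0.29), beside 20.6% higher and 27% lower over all features. The part of these in the differences of the immediate early genes was not tested, and in bulk mucosa fewer cells of a type and less RNA per cell cannot be told apart.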

How the data were processed

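RNA of 9 samples was hybridised to 1-colour Agilent arrays, 1 array per sample. The deposited intensity values are green-channel processed signals that Feature Extraction 10.5.1.1 had background-subtracted, per the file headers. The authors' deposited series table holds log2 values of 23726 probes, which equalled the log2 processed signal minus each array's median and served as an alternative. The array design was annotated on mm9, per the file headers, and no coordinates were taken from it.

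Here the log2 processed signal minus the array's 75th percentile was used, with control and outlier spots left out (383 probes had an outlier spot; 0 spots were saturated) and spots of a probe averaged. Probes were named by accession through a RefSeq table (GRCm38.p6; 25097 of 41174 probes), a probe stayed in (27192 did) where some group had it well above background on its 3 arrays, and the brightest probe stood for a gene, giving 21083 features, 14190 of them with a symbol. The model (limma 3.58.1, R 4.3.3) took all 9 arrays with lmFit and eBayes and no covariate, and was tested on simulated data first. Alternatives were normexp with an offset of 50 (on median spot and background signals, since the files used here had no mean spot signal), quantile normalization, the authors' values, other filters, probe rules and fits, slide and replicate blocks, single slides, and each array left out.

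The members and lists were chosen with earlier results of these data known. Named are all members, the 4 largest called differences of each list in each comparison, and the 3 genes most correlated with Fos, Egr1 and Ier3. Array number limits the precision.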

Additional observations from a re-analysis of the deposited data

Results flagged for a closer look

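For 6 genes the effect against DMH differed between high calcium mice without and with tumors, by limma's test of the difference itself; both effects share the DMH arrays, so the difference equals that between the high calcium groups. The effect without tumors minus that with tumors was -1.11 for Jun, -0.81 for Ier3, -0.37 for Dusp1, -0.35 for Egr1, -0.21 for Egr2 and 0.80 for Atf3 on the log2 scale. With slide as a block the calls of Jun (-0.97), Dusp1 (-0.36) and Atf3 (0.87) were kept and those of Ier3 (-0.38), Egr1 (-0.25) and Egr2 (-0.29) were lost. Groups of 3 arrays were not tested for outlying arrays.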

How the results depend on the processing

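Of 810 values of the 10 genes under the alternatives, 765 kept their direction and side of the threshold, 31 lost the call (21 of them Egr2), 13 gained it and 1 reversed: Fosb in both high calcium groups against DMH was 0.07 and, with slide as a block, -0.26 (adjusted p = 0.0283 by limma). The number of members called fell to 3 within slide 1 for mice without tumors minus DMH, where 4 arrays entered, and to 3 on the authors' values between mice without and with tumors (cause not tested). Replicate numbers did not pair the arrays (correlations of same-numbered deviations from -0.592 to 0.216), and with the replicate block 5, 6, 4 and 6 members were called in both groups, without tumors and with tumors against DMH, and between them. Features called over the whole table, in the same order, fell to 3192, 3833, 4157 and 6275 with normexp and to 2144, 3339, 2403 and 4783 of 18458 on the authors' values, beside 6665, 7530, 7795 and 10028. They also fell to 4319 without DMH replicate 3 for both groups, 3701 within slide 1 without tumors, and 6319 with slide as a block between the high calcium groups. Fitting only the compared groups does not apply to the combined comparison. Slide and group are partly confounded, and 3 arrays a group limit every comparison.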
